A study of Mus musculus with 12 samples.

Results

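Expression of 10 genes around the transcription factor NRF2 was followed in 12 RNA sequencing libraries of mouse bone marrow-derived macrophages. The genes were taken by symbol from a table of 54532 genes: Nfe2l2, Hmox1, Nqo1, Gclm, Gclc, Slc7a11, Gsr, Txnrd1, Srxn1 and Sod2. Each symbol had 1 row, and all 10 passed the filter on low counts that left 14286 tested genes. Macrophages were grown from bone marrow of 8-week-old mice with 10 ng/ml M-CSF, the growth factor of the lineage, and kept for 4 h in medium alone or with 500 ng/ml lipopolysaccharide (LPS), the bacterial ligand of Toll-like receptor 4. All 4 groups carry floxed Hdac3 alleles (Hdac3f/f), so there is no wild-type group. In 2 groups, called Lyz2-Cre below (Lyz2-Cre-Hdac3f/f), the Cre recombinase is made from the Lyz2 locus, which is active in myeloid cells. The groups are untreated Hdac3f/f, LPS-treated Hdac3f/f, untreated Lyz2-Cre and LPS-treated Lyz2-Cre, with 3 libraries each. The labels do not say whether the 3 libraries of a group come from separate mice, so p-values measure the spread between these libraries only.

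NRF2, encoded by Nfe2l2, is held in the cytoplasm and marked for degradation by KEAP1. When reactive oxygen or electrophiles modify KEAP1, NRF2 accumulates, pairs with small MAF proteins and binds antioxidant response elements, while BACH1 competes for the same elements. Its known targets supply cystine for glutathione, build and recycle glutathione, recycle thioredoxin and peroxiredoxin, reduce quinones and break down heme. Sod2, the mitochondrial superoxide dismutase, belongs to the same defence and is a well known target of NF-kB in macrophages.

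Totals ran from 16553432 to 18706990 counts per library, of which the 10 genes held 0.140% to 0.734%. Hdac3 itself was at 38.4 ± 1.86 and 34.9 ± 1.75 CPM (SD, n = 3) in untreated Hdac3f/f and Lyz2-Cre cells and at 39.5 ± 1.08 and 37.1 ± 2.37 CPM with LPS, and was not called between genotypes (edgeR adjusted p = 0.352 and 0.473). The count spans the whole gene, so how far the floxed part was deleted cannot be read from it. Macrophage markers were present in all groups, with Lyz2 their most abundant marker. Lyz2 was at 31.0 CPM in untreated Lyz2-Cre replicate 1 and at 5181 and 5637 CPM in replicates 2 and 3. It was at 6090 to 7728 CPM in LPS-treated Lyz2-Cre libraries. All Hdac3f/f libraries lay higher, at 9318 to 11990 CPM untreated and 10511 to 12351 CPM with LPS, though Lyz2 was not called between genotypes at either treatment. The summed level of 5 stromal markers was 280 to 1346 CPM in untreated and 804 to 1668 CPM in LPS-treated Hdac3f/f libraries, against 15.4 to 128 and 33.0 to 42.5 CPM in the Lyz2-Cre libraries. All 5 stromal markers were lower in Lyz2-Cre cells at both treatments. In bulk RNA, fewer cells of a type and less RNA per cell cannot be told apart.

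Start regions are shown first because NRF2 and NF-kB are known to bind short motifs near the start sites of their targets. RefSeq (GRCm38.p6) start regions, 250 bases before to 50 after the start site, were matched by symbol for 7 of the 10 genes, and 5 of them that hold a match are printed 5′ to 3′ on the gene's strand. Capitals mark matches to TGACNNNGC, the core of the antioxidant response element, to its variant TGAGNNNGC, or, in Sod2, to the NF-kB consensus, each searched on both strands. The window of Nfe2l2 is chr2:75704614-75704913 (minus strand), that of Gclm chr3:122245307-122245606 (plus), that of Slc7a11 chr3:50443564-50443863 (minus), that of Srxn1 chr2:152105274-152105573 (plus) and that of Sod2 chr17:13007589-13007888 (plus).
Nfe2l2: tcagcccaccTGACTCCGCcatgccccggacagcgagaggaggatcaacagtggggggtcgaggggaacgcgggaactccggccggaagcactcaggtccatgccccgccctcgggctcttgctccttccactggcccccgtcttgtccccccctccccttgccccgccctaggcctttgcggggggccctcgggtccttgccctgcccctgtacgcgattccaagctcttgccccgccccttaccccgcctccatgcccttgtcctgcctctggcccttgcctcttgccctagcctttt
Gclm: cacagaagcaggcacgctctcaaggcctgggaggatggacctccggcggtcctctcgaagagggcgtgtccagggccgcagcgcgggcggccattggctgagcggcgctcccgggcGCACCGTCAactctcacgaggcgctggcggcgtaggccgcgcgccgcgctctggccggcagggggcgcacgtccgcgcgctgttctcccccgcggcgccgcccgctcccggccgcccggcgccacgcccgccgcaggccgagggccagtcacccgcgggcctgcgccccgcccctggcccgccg
Slc7a11: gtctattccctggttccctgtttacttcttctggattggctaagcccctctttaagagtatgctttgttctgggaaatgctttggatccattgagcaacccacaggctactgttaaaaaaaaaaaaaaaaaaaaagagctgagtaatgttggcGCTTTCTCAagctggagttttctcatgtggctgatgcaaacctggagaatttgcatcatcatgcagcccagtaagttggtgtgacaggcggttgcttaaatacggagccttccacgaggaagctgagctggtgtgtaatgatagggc
Srxn1: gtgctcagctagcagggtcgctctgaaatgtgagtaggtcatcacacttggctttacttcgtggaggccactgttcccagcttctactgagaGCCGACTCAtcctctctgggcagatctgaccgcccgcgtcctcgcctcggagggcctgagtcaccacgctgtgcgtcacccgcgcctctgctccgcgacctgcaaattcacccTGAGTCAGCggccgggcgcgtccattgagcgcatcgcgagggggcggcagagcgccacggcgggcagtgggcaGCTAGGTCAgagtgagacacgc
Sod2: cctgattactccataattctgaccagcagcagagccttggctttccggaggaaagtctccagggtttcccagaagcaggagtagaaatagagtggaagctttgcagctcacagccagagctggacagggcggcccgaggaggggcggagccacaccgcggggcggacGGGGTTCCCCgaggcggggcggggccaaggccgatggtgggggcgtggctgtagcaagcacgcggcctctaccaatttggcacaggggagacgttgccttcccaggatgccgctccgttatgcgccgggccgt
Srxn1 held 3 matches of the antioxidant type, 1 of them (TGAGTCAGC) starting 45 bases before the start site. Gclm and Nfe2l2 held 1 match to TGACNNNGC each and Slc7a11 held 1 match to TGAGNNNGC, and 1 of the 3 start regions of Txnrd1 also held a match. None was found in the windows of Nqo1 and Sod2, which says only that these letters are not there. Either antioxidant form occurs in 27.8% of 32851 start regions of this length, and TGACNNNGC alone in 12.4%. The NF-kB match of Sod2, GGGGTTCCCC, is of a kind found in 8.46% of start regions. A match is a description of the sequence and not evidence of binding.

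Levels between genes were compared on the deposited FPKM scale, which divides by gene length. In untreated Hdac3f/f cells Hmox1, which encodes the enzyme that breaks heme into biliverdin, iron and carbon monoxide, was highest at 273 ± 52.5 FPKM (SD, n = 3). Srxn1 (48.8 ± 9.87), Nfe2l2 (38.2 ± 4.58) and Gsr (33.0 ± 5.05) followed and overlapped their neighbours within 1 SD. Txnrd1 was at 22.2 ± 3.26, Gclm at 15.5 ± 2.58, Sod2 at 7.20 ± 0.468 and Gclc at 6.11 ± 0.0830 FPKM. Nqo1 (4.41 ± 0.250) and Slc7a11 (0.795 ± 0.180) were lowest. In LPS-treated Lyz2-Cre cells Hmox1 stayed highest at 998 ± 90.7 FPKM, followed by Gsr (274 ± 7.93) and Sod2 (229 ± 6.02), and the lowest were Nqo1 (10.7 ± 1.37) and Gclc (9.90 ± 1.86), which overlapped. Slc7a11 had moved up to 41.9 ± 8.27 FPKM, beside Gclm at 37.5 ± 4.75.

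**Figure D1:**
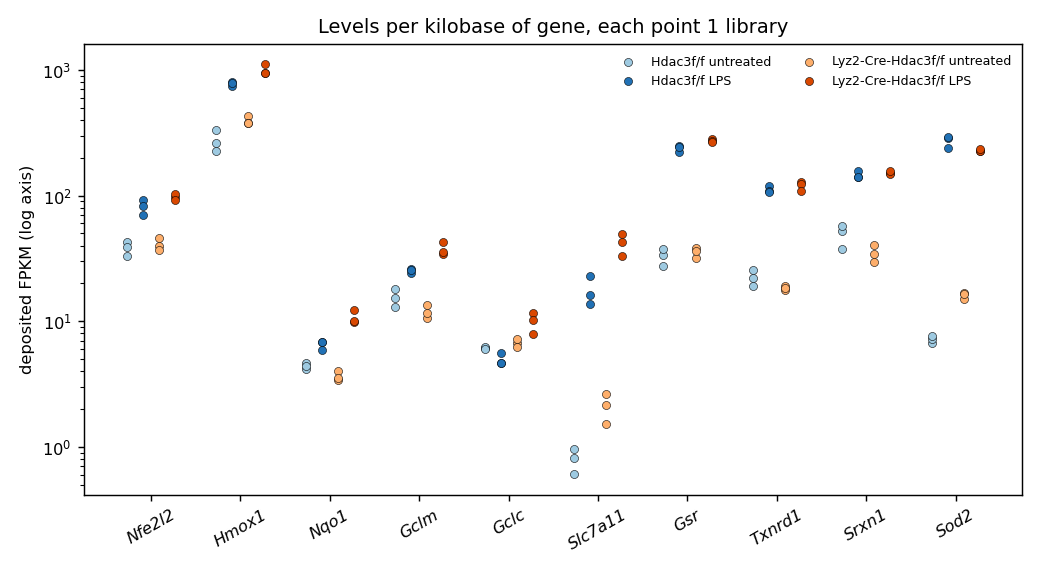
Deposited FPKM (log axis) of the 10 genes, each point 1 library, coloured by the 4 groups (3 libraries each). Hmox1 is the highest gene in every group, and Slc7a11 spans from below 1 FPKM in untreated Hdac3f/f cells to 41.9 FPKM on average in LPS-treated Lyz2-Cre cells.

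The first question was how these genes respond to LPS in Hdac3f/f and in Lyz2-Cre cells. In Hdac3f/f cells 9 of the 10 rose and 1, Gclc, fell, and in Lyz2-Cre cells all 10 rose. Sod2 and Slc7a11 rose most in both genotypes, then Gsr and Txnrd1. A gene was called to rise or fall when its Benjamini-Hochberg adjusted p in edgeR's quasi-likelihood test was under 0.05 over all tested genes. In Hdac3f/f cells 28.0% of all tested genes rose and 32.1% fell, and in Lyz2-Cre cells 25.2% rose and 27.7% fell. The median log2 fold change over the 10 genes was 1.49 in Hdac3f/f and 1.86 in Lyz2-Cre cells, beside -0.085 and -0.076 over all tested genes.

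Levels below are CPM, counts scaled to a common library size by TMM, given as replicates 1, 2 and 3. Positions are those of the whole gene in mm10. Where all libraries of 1 group lay above or below those of another, this describes the values shown. It was not counted over all tested genes. Nfe2l2 (ENSMUSG00000015839, chr2:75675513-75704641, minus strand) was at 167, 152 and 127 CPM in untreated Hdac3f/f libraries and at 348, 260 and 304 CPM with LPS. The level in Lyz2-Cre libraries was 183, 156 and 146 CPM untreated and 378, 392 and 354 CPM with LPS. All LPS-treated libraries lay above all untreated ones, and the transcript of the regulator itself rose by a log2 fold change of 1.03 ± 0.13 (SE; adjusted p = 2.1e-05, edgeR) in Hdac3f/f and 1.21 ± 0.13 (adjusted p = 6.9e-06) in Lyz2-Cre cells. NRF2 is known to be controlled mainly at the protein level, which these data do not measure.

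The genes for glutathione synthesis gave 3 different pictures. Slc7a11 (ENSMUSG00000027737, chr3:49892526-50443614, minus strand) encodes the subunit of system xc- that imports cystine, the source of the cysteine in glutathione. It was at 13.9, 11.6 and 8.49 CPM in untreated Hdac3f/f libraries and at 317, 186 and 219 CPM with LPS. Untreated Lyz2-Cre libraries were at 38.3, 31.0 and 21.9 CPM and LPS-treated ones at 706, 602 and 464 CPM. The groups did not overlap in any of these steps. The log2 fold change with LPS was 4.41 ± 0.28 (adjusted p = 2.7e-08, edgeR) in Hdac3f/f and 4.28 ± 0.28 (adjusted p = 4.4e-08) in Lyz2-Cre cells, and 1.40% and 0.980% of tested genes rose by more. Replicates spread more for this gene than for the others, with a coefficient of variation of 20.5% to 28.3% within groups.

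Gclm (ENSMUSG00000028124, chr3:122245557-122270732, plus strand) and Gclc (ENSMUSG00000032350, chr9:77754535-77794485, plus strand) encode the modifier and catalytic subunits of glutamate-cysteine ligase, the rate-limiting enzyme of glutathione synthesis. Gclm was at 84.9, 98.8 and 115 CPM in untreated Hdac3f/f libraries and at 152, 161 and 156 CPM with LPS. With Lyz2-Cre it was at 69.6, 75.6 and 88.3 CPM untreated and at 277, 218 and 223 CPM with LPS. It thus rose by 0.65 ± 0.13 (log2, SE; adjusted p = 9.0e-04, edgeR) in Hdac3f/f and by 1.62 ± 0.14 (adjusted p = 5.1e-07) in Lyz2-Cre cells. Gclc was at 23.9, 23.9 and 22.9 CPM in untreated Hdac3f/f libraries and at 21.1, 17.2 and 17.0 CPM with LPS. The level in Lyz2-Cre libraries was 26.3, 28.5 and 24.5 CPM untreated and 44.5, 38.9 and 29.9 CPM with LPS. All LPS-treated libraries lay below the untreated ones in Hdac3f/f cells and above them in Lyz2-Cre cells, with log2 fold changes of -0.35 ± 0.15 (adjusted p = 0.0498, edgeR) and 0.52 ± 0.14 (adjusted p = 0.00804). The ratio of Gclm to Gclc in FPKM went from 2.54 ± 0.446 (SD, n = 3) to 5.15 ± 0.718 with LPS in Hdac3f/f and from 1.78 ± 0.330 to 3.85 ± 0.565 in Lyz2-Cre cells, without overlap between untreated and LPS-treated libraries of either genotype.

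The size and the call of the fall of Gclc in Hdac3f/f cells varied with the setting. In 14 of the 20 other settings it was not called, including the fits without Hdac3f/f untreated replicate 1, 2 or 3, Hdac3f/f LPS replicate 2 or 3, Lyz2-Cre untreated replicate 1, 2 or 3 or Lyz2-Cre LPS replicate 2 (adjusted p from 0.0611 to 0.142, edgeR). It lay below 0 in all 20, and was -0.99 (adjusted p = 2.9e-04) when scaled by library totals.

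Recycling enzymes rose strongly. Gsr (ENSMUSG00000031584, chr8:33652523-33698163, plus strand) encodes glutathione reductase, which regenerates glutathione with NADPH. It was at 78.9, 94.5 and 105 CPM in untreated and 614, 666 and 647 CPM in LPS-treated Hdac3f/f libraries. Untreated Lyz2-Cre libraries were at 110, 91.0 and 103 CPM and LPS-treated ones at 798, 755 and 743 CPM. The log2 fold changes were 2.79 ± 0.12 (adjusted p = 8.3e-10, edgeR) and 2.91 ± 0.12 (adjusted p = 1.0e-09). Every LPS-treated library lay above every untreated one.

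Txnrd1 (ENSMUSG00000020250, chr10:82833951-82897712, plus strand) encodes the cytosolic thioredoxin reductase. It was at 140.1, 159.9 and 183 CPM in untreated and 842, 756 and 735 CPM in LPS-treated Hdac3f/f libraries. With Lyz2-Cre it was at 141, 129.8 and 135 CPM untreated and at 925, 879.6 and 781 CPM with LPS. It rose by 2.27 ± 0.12 (adjusted p = 3.9e-09, edgeR) and 2.67 ± 0.12 (adjusted p = 1.9e-09). Srxn1 (ENSMUSG00000032802, chr2:152105516-152111376, plus strand) encodes sulfiredoxin, which restores over-oxidised peroxiredoxins. It was at 110.4, 149 and 161 CPM in untreated and 395, 432 and 385 CPM in LPS-treated Hdac3f/f libraries. The level in Lyz2-Cre libraries was 118, 100.3 and 86.1 CPM untreated and 433, 424 and 442 CPM with LPS. The log2 fold changes were 1.53 ± 0.15 (adjusted p = 1.2e-06, edgeR) and 2.09 ± 0.15 (adjusted p = 1.0e-07). For both genes, too, every LPS-treated library lay above every untreated one of either genotype.

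Hmox1 (ENSMUSG00000005413, chr8:75093621-75100589, plus strand) was at 411, 471 and 582 CPM in untreated and 1296, 1366 and 1343 CPM in LPS-treated Hdac3f/f libraries. Untreated Lyz2-Cre libraries were at 781, 689 and 682 CPM and LPS-treated ones at 1974, 1665 and 1672 CPM. It rose by 1.45 ± 0.13 (adjusted p = 7.4e-07, edgeR) and 1.30 ± 0.13 (adjusted p = 2.9e-06), and the treated and untreated libraries did not overlap. Nqo1 (ENSMUSG00000003849, chr8:107388225-107403206, minus strand) encodes the quinone reductase often used as a marker of NRF2 activity and was low in these cells. It was at 6.68, 7.40 and 6.90 CPM in untreated and 10.6, 10.4 and 8.85 CPM in LPS-treated Hdac3f/f libraries. With Lyz2-Cre it was at 6.46, 5.52 and 5.67 CPM untreated and at 19.6, 15.4 and 15.8 CPM with LPS, so that its highest levels were all in LPS-treated Lyz2-Cre cells. The log2 fold changes were 0.51 ± 0.14 (adjusted p = 0.00737, edgeR) and 1.52 ± 0.14 (adjusted p = 1.3e-06).

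Sod2 (ENSMUSG00000006818, chr17:13006846-13040063, plus strand) gave the largest rise of the 10 in Hdac3f/f cells. It was at 69.8, 73.8 and 77.2 CPM in untreated and 2396, 2822 and 2825 CPM in LPS-treated Hdac3f/f libraries. The level in Lyz2-Cre libraries was 175, 155 and 170.5 CPM untreated and 2292, 2289 and 2370 CPM with LPS. The log2 fold change was 5.19 ± 0.12 (adjusted p = 6.3e-12, edgeR) in Hdac3f/f and 3.79 ± 0.11 (adjusted p = 9.4e-11) in Lyz2-Cre cells, and 0.861% and 1.39% of tested genes rose by more. Untreated Lyz2-Cre libraries lay above the untreated Hdac3f/f ones, and LPS-treated Lyz2-Cre libraries below the treated Hdac3f/f ones.

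**Figure D2:**
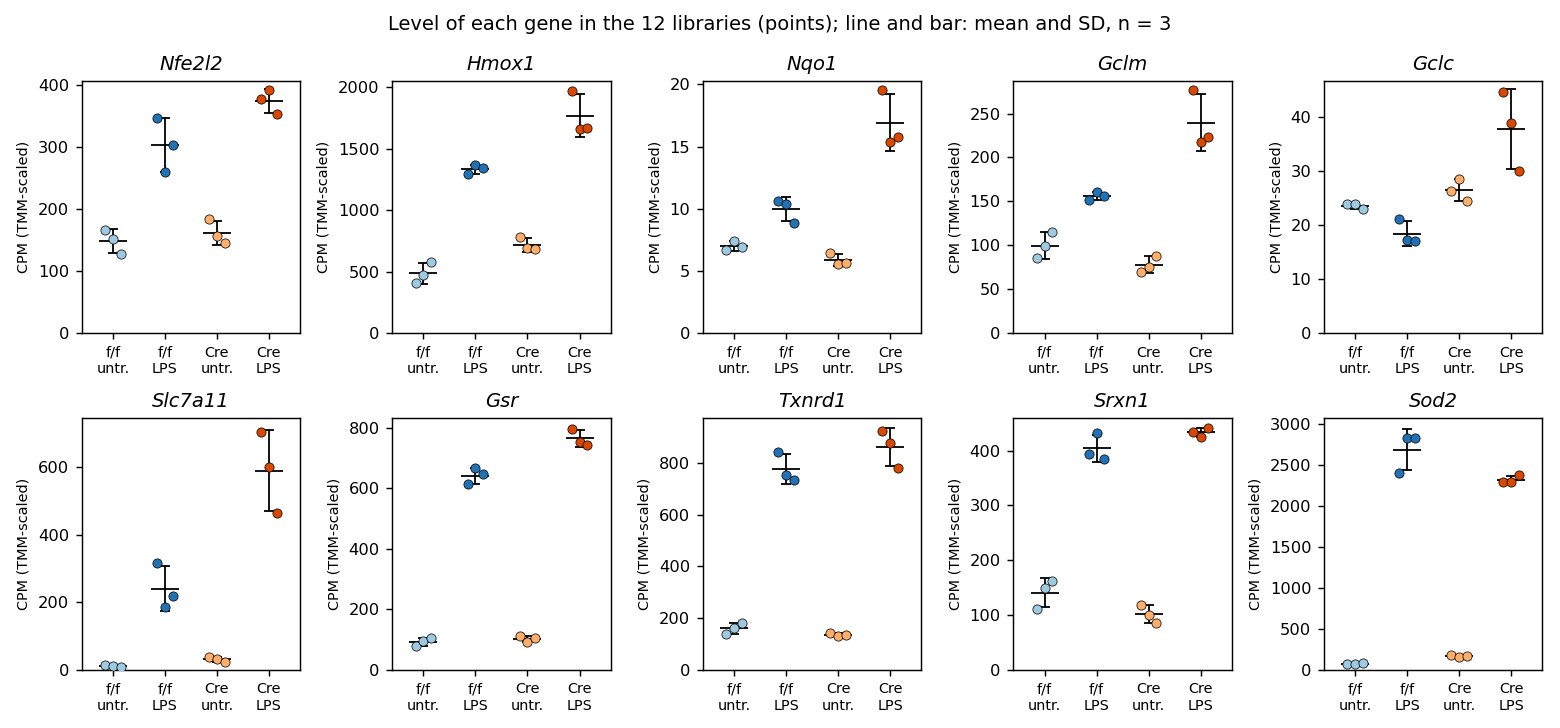
CPM on TMM-scaled library sizes of each gene in the 12 libraries (points), with mean and SD (black line and bar, n = 3), for untreated (untr.) and LPS-treated Hdac3f/f (f/f) and Lyz2-Cre-Hdac3f/f (Cre) cells, each panel on its own axis from 0. LPS-treated libraries lie above untreated ones of the same genotype in every panel except Gclc in Hdac3f/f cells, where they lie below.

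The scale bears on the small changes. The mean TMM factor of the Hdac3f/f libraries was 1.19 untreated and 0.763 with LPS. When only library totals set the scale, the median log2 fold change over tested genes moved from -0.08 to -0.72 in Hdac3f/f and to -0.46 in Lyz2-Cre cells. On that scale Nqo1 (-0.13) lay on the other side of 0 and Gclm (0.02) was no longer called in Hdac3f/f cells, Gclc (0.13) was no longer called in Lyz2-Cre cells, and the other calls of both LPS responses held. In Hdac3f/f cells the rises of Nfe2l2 (0.40), Hmox1 (0.82) and Srxn1 (0.90) were smaller on that scale and the fall of Gclc (-0.99) larger, so all values here are relative to the TMM scale.

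**Figure D3:**
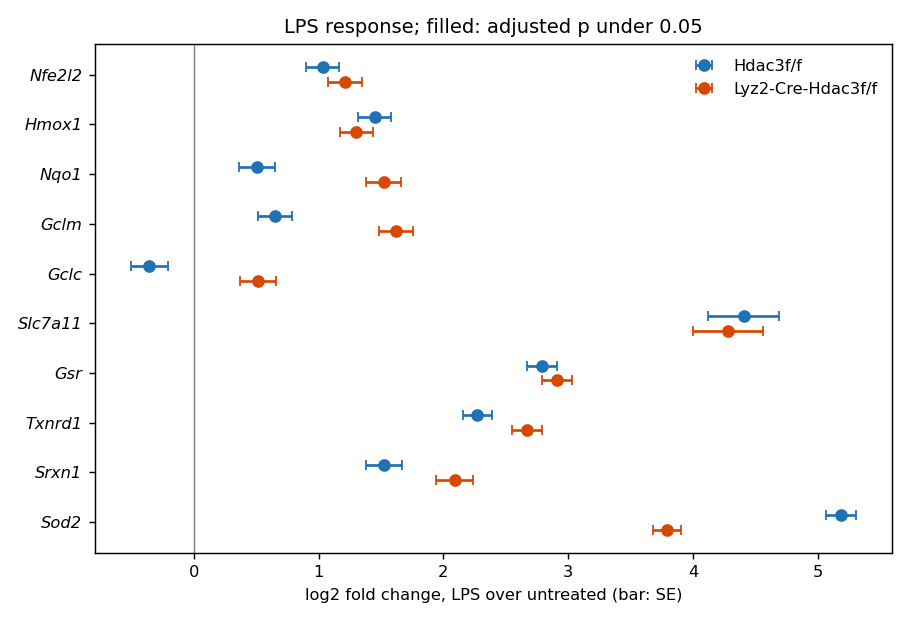
Log2 fold change of LPS-treated over untreated libraries with its SE for Hdac3f/f (blue) and Lyz2-Cre-Hdac3f/f cells (orange), filled where the adjusted p was under 0.05. Gclc lies at -0.35 in Hdac3f/f and 0.52 in Lyz2-Cre cells, and Sod2 at 5.19 and 3.79.

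Other genes of the pathway came from 8 lists of 107 genes without the 10, of which 103 were tested. With LPS 38 rose, 37 fell and 28 were not called in Hdac3f/f cells (median log2 fold change -0.060), and the median in Lyz2-Cre cells was 0.040, with 37 up and 33 down. Of 12 regulators of NRF2, 7 rose and 2 fell in each genotype. The small MAF genes Maff (4.55 in Hdac3f/f, 4.37 in Lyz2-Cre) and Mafk (1.93 and 1.00) and Sqstm1, whose protein p62 sequesters KEAP1 (1.995 and 1.63), rose. Mafg rose in Lyz2-Cre cells (0.96), from a mean of 128 to 249 CPM, and its mean went from 148 to 274 CPM in Hdac3f/f cells. The mean of Keap1, given here after its values were seen, went from 89.7 to 195 CPM in Hdac3f/f and from 88.3 to 124 CPM in Lyz2-Cre cells. The repressor genes Bach1 (-0.49 and -0.90) and Bach2 (-1.52 and -1.05) fell. All 6 NADPH oxidase genes rose in Hdac3f/f cells and 5 in Lyz2-Cre cells, with Ncf1 at 1.46 and 0.79, Rac2 at 1.98 and 1.45 and Ncf4 at 1.86 and 1.44.

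Among 33 tested genes of glutathione synthesis and use, 8 rose and 16 fell in Hdac3f/f cells, and 8 rose and 15 fell in Lyz2-Cre cells. Glrx, glutaredoxin (2.75 and 2.23), Gstt1 (3.36 and 2.24), Ggct (2.25 and 1.48), the glutathione exporter Abcc1 (1.69 and 2.38) and Slc3a2, the heavy chain that partners Slc7a11 (1.16 and 0.43), rose in both, as did Chac2 (0.88 and 0.65). In Hdac3f/f cells Chac1 (1.83) and Gstt2 (0.54) rose as well, and Oplah (-2.32), Glo1 (-1.37) and Gstm4 (-1.74) had the lowest p among the falls. In Lyz2-Cre cells Gss (0.47) and Gsta3 (1.05) rose, and Oplah (-2.09), Gstm4 (-1.48) and Gpx3 (-1.63) had the lowest p among the falls. Of 17 thioredoxin and peroxiredoxin genes 7 rose and 5 fell in Hdac3f/f and 6 rose and 4 fell in Lyz2-Cre cells. Prdx5 (3.34 and 2.38) and Txn1, thioredoxin (1.77 and 1.32), rose, and Sesn1 (-5.20 and -4.17), the mitochondrial reductase Txnrd2 (-0.50 and -0.27) and Msra (-0.52 and -0.49) fell. Prdx3 (-0.73) and Txnip (-0.38) also fell in Hdac3f/f cells, and Sesn2 (-1.04) fell in Lyz2-Cre cells. Txndc17 rose in Hdac3f/f cells (0.79), from a mean of 45.4 to 78.3 CPM, and its mean went from 42.0 to 63.4 CPM in Lyz2-Cre cells. Txnl1 rose in Lyz2-Cre cells (0.92), from a mean of 44.4 to 84.2 CPM, and its mean went from 47.0 to 82.2 CPM in Hdac3f/f cells.

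Of 9 genes that supply NADPH, 4 rose and 3 fell in Hdac3f/f cells and 4 rose and 2 fell in Lyz2-Cre cells. The pentose phosphate enzymes Pgd (1.24 and 1.61) and G6pdx (0.78 and 1.08) and the kinase Nadk (0.87 and 1.01) rose, while the isocitrate dehydrogenases Idh1 (-2.79 and -2.16) and Idh2 (-1.94 and -1.98) fell, as did Pgls in Hdac3f/f cells (-0.44). In the list of heme and iron genes, Blvrb (1.49 and 1.33), a biliverdin reductase, and the ferritin gene Fth1 (1.08 and 0.63) rose. Slc11a1 (0.65 and 0.55) rose too, as did Hmox2 (0.35) in Hdac3f/f cells. Blvra, also a biliverdin reductase, is given here after its values were seen. Its mean went from 99.3 to 55.5 CPM with LPS in Hdac3f/f and from 82.0 to 54.6 CPM in Lyz2-Cre cells. The iron exporter ferroportin, Slc40a1 (-3.01 and -2.26), the heme exporter Flvcr1 (-2.36 and -2.15) and the transferrin receptor Tfrc (-2.39 and -1.01) fell. In that list of 11 tested genes 4 rose and 5 fell in Hdac3f/f and 3 rose and 6 fell in Lyz2-Cre cells. Of 12 other tested NRF2 targets only Abcc4 (1.33) rose and 5 fell in Hdac3f/f cells, among them Cbr1 (-1.43), Abhd4 (-1.19) and Nqo2 (-1.19). In Lyz2-Cre cells 4 rose, Abcc4 (1.38), Akr1b8 (1.18), Ptgr1 (0.88) and Pir (1.19), the last with 3.67 CPM in its higher group and named after its values were seen, and 4 fell, among them Nqo2 (-1.29), Cbr1 (-1.07) and Ephx1 (-0.92). Catalase, Cat, fell in Hdac3f/f cells (-1.14), where the extracellular dismutase Sod3 rose (2.56), and in Lyz2-Cre cells none of Cat, Sod1 and Sod3 was called by edgeR, DESeq2 or limma-voom, with 0 at an unadjusted p under 0.05.

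Which of the 10 genes differ between the genotypes was asked next, on the same libraries as the LPS responses. Without LPS, Slc7a11, Sod2 and Hmox1 were higher in Lyz2-Cre cells and none was called lower (0 by edgeR and limma-voom, 1 by DESeq2, 3 at an unadjusted p under 0.05), while 5.12% of all tested genes were called higher and 6.66% lower. The log2 fold change of Lyz2-Cre over Hdac3f/f was 1.42 ± 0.26 (SE) for Slc7a11 (adjusted p = 0.00540, edgeR), 1.18 ± 0.10 for Sod2 (adjusted p = 4.4e-05) and 0.56 ± 0.13 for Hmox1 (adjusted p = 0.0173). For these 3 genes every Lyz2-Cre library lay above every Hdac3f/f library in the values above. As the calls rest on these same libraries, their separation is no further support. Srxn1 (-0.47 ± 0.14, adjusted p = 0.0529), Gclm (-0.36 ± 0.13, adjusted p = 0.102) and Txnrd1 (-0.25 ± 0.11, adjusted p = 0.165) lay below 0 with overlapping libraries. Nqo1 was at -0.25 ± 0.14 (adjusted p = 0.266), with all 3 Lyz2-Cre libraries below the others. Nfe2l2 (0.12 ± 0.13) and Gsr (0.13 ± 0.11) were not called either, nor was Gclc (0.17 ± 0.14), whose Lyz2-Cre libraries all lay above the others. The median over the 10 genes was 0.13, beside 0.031 over all tested genes.

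The call for Hmox1 was lost without Hdac3f/f untreated replicate 2 (0.53, adjusted p = 0.0753, edgeR) and without Lyz2-Cre untreated replicate 1 (0.49, adjusted p = 0.0685), the library with little Lyz2. Without that library Slc7a11 (1.22, adjusted p = 0.0212) and Sod2 (1.14, adjusted p = 2.7e-04) were still called higher. Without Hdac3f/f untreated replicate 1, which had the highest stromal marker sum of its group (1346 CPM), 5 of the 10 were called, with Srxn1 (-0.62, adjusted p = 0.00772) and Gclm (-0.46, adjusted p = 0.0335) lower. Calls over all genes also grew in that fit, to 1223 higher and 1307 lower of 14595, against 732 and 952 of 14286 with all libraries. In all, 9 of 20 other settings called Srxn1 lower, including those without Lyz2-Cre untreated replicate 1 (-0.59), Hdac3f/f LPS replicate 1 (-0.49) and Hdac3f/f LPS replicate 2 (-0.49).

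With LPS, 5 of the 10 were higher in Lyz2-Cre cells and none was called lower (0 by edgeR and limma-voom, 1 by DESeq2, 0 at an unadjusted p under 0.05 in edgeR), while 15.7% of all tested genes were called higher and 16.9% lower. They are the 3 genes of glutathione synthesis, Slc7a11 (1.29 ± 0.24, adjusted p = 0.00225, edgeR), Gclc (1.04 ± 0.15, adjusted p = 4.3e-04) and Gclm (0.61 ± 0.13, adjusted p = 0.00489), with Nqo1 (0.76 ± 0.14, adjusted p = 0.00184) and Hmox1 (0.41 ± 0.13, adjusted p = 0.0302). On a linear scale Slc7a11 was at 591 ± 121 against 241 ± 68.0 CPM (SD, n = 3), Gclc at 37.8 ± 7.38 against 18.4 ± 2.30, Gclm at 239 ± 32.4 against 156 ± 4.43, Nqo1 at 16.9 ± 2.30 against 9.95 ± 0.959 and Hmox1 at 1770 ± 176 against 1335 ± 35.9 CPM. For each of these every Lyz2-Cre library lay above every Hdac3f/f library. The calls came from these same libraries, so their separation adds no support. Nfe2l2 (0.30 ± 0.13, adjusted p = 0.0976) and Gsr (0.25 ± 0.11, adjusted p = 0.102) were higher in every Lyz2-Cre library but not called. The share of all tested genes with libraries apart in this way was not counted. Sod2 was lower in every Lyz2-Cre library and not called by edgeR (-0.21 ± 0.10, adjusted p = 0.123), and it is the gene that DESeq2 called lower. Txnrd1 (0.15 ± 0.11) and Srxn1 (0.10 ± 0.14) overlapped between genotypes. The median over the 10 genes was 0.35, beside 0.018 over all tested genes.

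Hmox1 lost its call without Hdac3f/f LPS replicate 2 (0.42, adjusted p = 0.0620, edgeR) or replicate 3 (0.42, 0.0697), without Lyz2-Cre LPS replicate 1 (0.33, 0.118) or replicate 2 (0.45, 0.0527), and with DESeq2 size factors (0.36, 0.0565). Without Hdac3f/f LPS replicate 1, Nfe2l2 (0.41, adjusted p = 0.0306) was called higher and Sod2 (-0.29, adjusted p = 0.0292) lower. Scaled by library totals, the median log2 fold change over tested genes was 0.29, Sod2 turned to 0.063, Hmox1 was at 0.68, and the 9 genes other than Sod2 were called higher. Of 14286 tested genes 4465 were called higher and 1329 lower on that scale, against 2243 and 2413 on the TMM scale.

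**Figure D4:**
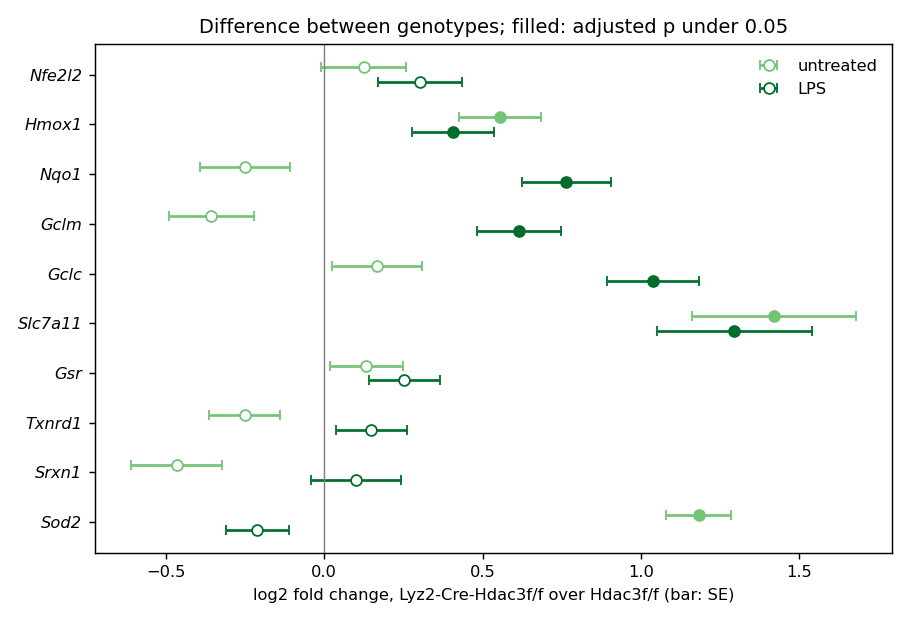
Log2 fold change of Lyz2-Cre-Hdac3f/f over Hdac3f/f cells with its SE, without LPS (light green) and with LPS (dark green), filled where the adjusted p was under 0.05. Slc7a11 lies above 1 at both treatments, Nqo1, Gclm and Gclc are filled with LPS and open without it, and Sod2 goes from 1.18 to -0.21.

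The deposited table of the authors holds their own test of both comparisons, with ratios of Hdac3f/f over Lyz2-Cre cells, so that a negative value means higher in Lyz2-Cre. In the authors' deposited table the adjusted p without LPS was under 0.05 for Slc7a11 (-1.39), Sod2 (-1.15) and Hmox1 (-0.52), and also for Srxn1 (0.50, adjusted p = 0.0256). With LPS the authors' deposited table gave adjusted p-values under 0.05 for Slc7a11 (-1.29), Gclc (-1.03), Nqo1 (-0.76), Gclm (-0.61) and Hmox1 (-0.40).

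Whether the LPS response itself differs between genotypes was tested with the interaction, the response in Lyz2-Cre minus that in Hdac3f/f cells, which uses all 12 libraries and so shares them with every comparison above. Of the 10 genes, 3 responded more in Lyz2-Cre cells, Nqo1, Gclm and Gclc, and 1 less, Sod2. Over all tested genes 2.58% were called higher and 5.54% lower. The interaction was 1.01 ± 0.20 (SE) for Nqo1 (adjusted p = 0.00894, edgeR), 0.97 ± 0.19 for Gclm (adjusted p = 0.00826), 0.87 ± 0.20 for Gclc (adjusted p = 0.0214) and -1.39 ± 0.14 for Sod2 (adjusted p = 3.5e-04). For Sod2 the untreated level differed, and the LPS-treated level was called lower in Lyz2-Cre cells by DESeq2 (-0.26, adjusted p = 0.0274) but not by edgeR or limma-voom with all libraries. The untreated mean was 167 ± 10.6 in Lyz2-Cre against 73.6 ± 3.72 CPM (SD, n = 3), and the LPS-treated mean 2317 ± 46.2 against 2681 ± 247 CPM.

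For the others the interaction was not called. Srxn1 (0.57 ± 0.20, adjusted p = 0.107, edgeR) and Txnrd1 (0.40 ± 0.16, adjusted p = 0.151) lay above 0, Nfe2l2 (0.18 ± 0.19) and Gsr (0.12 ± 0.16) within 1 SE of 0, and Hmox1 (-0.15 ± 0.18) and Slc7a11 (-0.12 ± 0.35) slightly below it. The SE of Slc7a11 was the widest of the 10, so its value bounds the difference in response least. The median over the 10 genes was 0.29, beside 0.019 over all tested genes.

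Calls for Nqo1, Gclm and Sod2 held in all 19 other settings run. Without Lyz2-Cre untreated replicate 1, the library with little Lyz2, the interaction was 1.09 for Nqo1, 0.90 for Gclm, 0.87 for Gclc and -1.35 for Sod2. Gclc lost its call without Hdac3f/f untreated replicate 2 (0.86, adjusted p = 0.0586, edgeR), Hdac3f/f LPS replicate 3 (0.85, 0.0521), Lyz2-Cre untreated replicate 3 (0.82, 0.0609), Lyz2-Cre LPS replicate 1 (0.77, 0.0522) or Lyz2-Cre LPS replicate 2 (0.85, 0.0526). Without Hdac3f/f untreated replicate 1 Srxn1 was called too (0.72, adjusted p = 0.0216). Scaled by library totals, Srxn1 (0.81, adjusted p = 0.0125) and Txnrd1 (0.64, adjusted p = 0.0246) were both called higher, which made 5 higher and 1 lower of the 10. Over all tested genes 1134 were called higher and 448 lower on that scale, against 369 and 791 on the TMM scale.

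**Figure D5:**
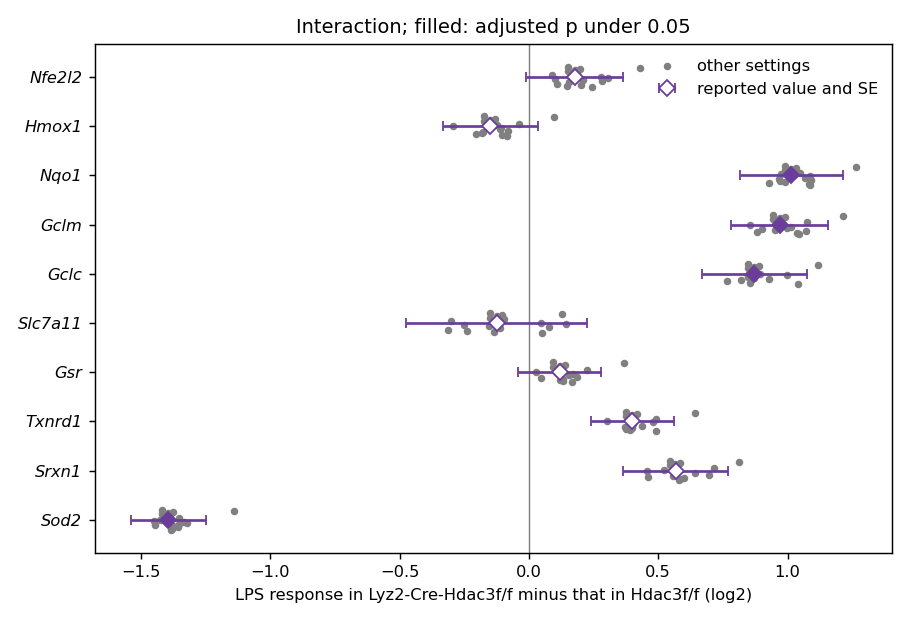
Interaction of genotype and LPS (log2) of each gene as reported with its SE (diamonds, filled where the adjusted p was under 0.05) and under 19 other settings (grey points). Nqo1, Gclm and Gclc lie to the right of 0 and Sod2 to the left under every setting, while Slc7a11 and Hmox1 have points on both sides.

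Beside these results, markers of other cell types also moved with the genotype, first the 5 stromal markers given above. The summed level of 4 T and NK cell markers was 2.87 to 6.64 and 4.24 to 8.35 CPM in untreated and LPS-treated Hdac3f/f libraries and 8.41 to 13.4 and 12.3 to 18.5 CPM in the Lyz2-Cre libraries. The 5 mast cell and basophil markers summed to 28.5 to 32.6 and 94.8 to 133 CPM in Hdac3f/f and to 45.3 to 71.9 and 76.1 to 120.0 CPM in Lyz2-Cre libraries, untreated and with LPS. All 5 were called higher in untreated Lyz2-Cre cells. With LPS, 4 were called higher there, Fcer1a (1.47), Ms4a2 (1.70), Mcpt8 (0.96) and Cpa3 (1.19), and Hdc, which led the sum in LPS-treated Hdac3f/f cells at 78.6 CPM, was lower (-1.30). The 6 neutrophil and granulocyte precursor markers summed to 138 to 232 and 61.9 to 133 CPM in Hdac3f/f and to 44.9 to 112 and 35.8 to 168 CPM in Lyz2-Cre libraries, without overlap between genotypes when untreated. Of the 7 macrophage markers, Itgam was lower in Lyz2-Cre cells without LPS (-1.22) and with it (-1.31), Cd68 (-0.85) and Fcgr1 (-0.81) were lower with LPS, Mertk was higher at both (0.58 and 0.42), and Adgre1 (0.44) and Csf1r (0.36) were higher with LPS. The 3 endothelial markers, led by Kdr, summed to 29.2 to 75.8, 81.9 to 105, 98.1 to 156 and 75.6 to 82.8 CPM in the 4 groups in the same order. The 6 erythroid markers summed to 0.972 to 2.52 and 1.33 to 3.05 CPM in Hdac3f/f and to 1.84 to 5.78 and 3.87 to 7.67 CPM in Lyz2-Cre libraries, untreated and with LPS. Hba-a1 was called higher in LPS-treated Lyz2-Cre cells (1.65). For 4 dendritic cell markers the sums were 0.730 to 1.47 and 3.43 to 3.77 CPM against 1.36 to 2.98 and 4.28 to 7.15 CPM. Of these, Zbtb46 was called higher with LPS (1.09), and Flt3 and Xcr1 were not called. The sum of 3 B cell markers stayed at or under 1.32 CPM in all 12 libraries. The part of these markers and cell types in the differences between genotypes was not tested.

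Among the other pathway genes, 17 of 103 were higher and 18 lower in LPS-treated Lyz2-Cre cells, near the shares over all tested genes (median -0.061). Of the NRF2 regulators, Mafk (-0.97), Keap1, the inhibitor of NRF2 (-0.65), and Maff (-0.69) were lower, and Cul3, the ligase scaffold that works with KEAP1 (0.42), was higher. Keap1 was at 124 ± 10.5 CPM in LPS-treated Lyz2-Cre against 195 ± 27.1 CPM in LPS-treated Hdac3f/f cells (SD, n = 3), and its interaction was called as well (-0.62), as was that of Mafk (-0.93). In glutathione synthesis and use 4 were higher, Gss, glutathione synthetase (0.57), Abcc1 (0.76), Glo1 (0.46) and Oplah (1.02), and 6 lower, among them Gpx3 (-1.51), Ggct (-0.57) and Chac1 (-1.17). Ptgr1 (0.79) and Akr1b8 (0.58), both known NRF2 targets, were higher, with called interactions of 1.10 and 1.44, while Ephx1 was lower (-1.92). In heme and iron 5 of 11 were higher, among them Slc40a1 (0.92), Flvcr1 (0.68) and Tfrc (0.69), and Hmox2, the constitutive heme oxygenase, was lower (-0.54). Idh1 (0.83) and G6pdx (0.31) were higher, as was Cybb, the catalytic NADPH oxidase subunit (0.57), while Ncf1 (-0.43) and Rac2 (-0.37) were lower. Prdx3 (0.45) and Sesn3 (0.69) were higher, 4 were lower, among them Prdx4 (-0.75), Txndc17 (-0.31) and Msra (-0.58), and Sod3 was far lower (-5.38).

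Without LPS 6 of the 103 were higher and 14 lower in Lyz2-Cre cells (median -0.088), beside 5.12% and 6.66% of all tested genes. None of the 12 NRF2 regulators was called by edgeR, DESeq2 or limma-voom, with 2 at an unadjusted p under 0.05 in edgeR. The higher genes were Cybb (0.57), Oplah (0.79), Gstt1 (1.00), Flvcr1 (0.46), Osgin1 (0.63) and Prdx5 (0.71). Among the lower were Ephx1 (-1.82), Mgst3 (-1.90), Akr1b8 (-0.86), Me1 (-1.31), Gsta3 (-1.16), Tfrc (-0.70), Sod1 (-0.68), Sod3 (-2.75), Prdx4 (-0.68), Sesn1 (-0.83) and Msra (-0.61). Akr1b8 was thus called lower without LPS and higher with it, and the same shift appears for Tfrc. The interaction was called higher for 7 of the 103 and lower for 9, beside 2.58% and 5.54% of all tested genes. The higher ones were Akr1b8, Ptgr1, Tfrc (1.38), Me1 (1.51), Gsta3 (1.41), Abcc1 (0.69) and Idh1 (0.63). Besides Keap1 and Mafk, the lower ones included Slc3a2 (-0.73), Prdx5 (-0.96), Gstt1 (-1.13), Ggct (-0.77), Ncf1 (-0.67), Hmox2 (-0.66), and Gpx3 (-1.01), which was named after its values were seen.

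Over the 12 libraries 9 of the 10 genes, all but Gclc, had correlated log2 CPM, given as a description because these 9 share the LPS step. Pearson's r over their 36 pairs ran from 0.798 to 0.993 (median 0.923, n = 12 libraries), and over the 9 pairs with Gclc from 0.0754 to 0.507. Spearman's rho was 0.580 for the pair of lowest r among the 36, Nqo1 and Sod2, and 0.895 for the highest, Gsr and Txnrd1. The genes most like Nfe2l2 among 10167 compared were Tiparp (r = 0.994), Milr1 (0.992) and Nab1 (0.990). The closest of the 10 was Slc7a11 at rank 30 (r = 0.982). Apart from Gclc (rank 4250), the rest lay from rank 315 (Gsr, r = 0.953) to 1428 (Gclm, r = 0.864). Such values of r with Nfe2l2 were thus common among the genes compared. The genes most like Hmox1 were Slpi (r = 0.984), Gorasp2 (0.982) and Smpdl3b (0.981). Here too Slc7a11 came closest of the 10, at rank 26 (r = 0.972). Apart from Gclc (rank 4269), the rest lay from rank 94 (Sod2, r = 0.958) to 1383 (Nqo1, r = 0.857).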

How the data were processed

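The deposited table was made by the authors and holds, for each of 12 libraries, counts per gene and FPKM, with gene length and mm10 coordinates. TopHat2 and mm10 are named without versions in the submitters' processing notes; the counting tool, its use of strand and the annotation release are not given in the sources used here. Per the file headers, the deposited values are counts, all whole numbers, and FPKM, which are scaled by gene length. The values show that the library size behind the FPKM was not the total of the counts. The authors also deposited log2 ratios of Hdac3f/f over Lyz2-Cre-Hdac3f/f cells, each with a raw and an adjusted p-value, from a test not given in the sources used here. Deposited group means of a normalized count signal, also by the authors, served only to read the sign of those ratios.

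Counts were used for all tests. The low-count filter of edgeR 4.0.16 (filterByExpr) left 14286 of 54532 genes. They were scaled by TMM (factors 0.716 to 1.26) and fitted in 1 quasi-likelihood model over all 12 libraries with no covariate beside group. It gave 5 contrasts, each adjusted by Benjamini-Hochberg across the tested genes. Differences are log2 with SE. Alternatives were DESeq2 size factors, library totals, 2 other filters, DESeq2 1.42.0, limma-voom (limma 3.58.1), a replicate block, fits of only the groups compared, and leaving out each library. The fit was tested on simulated data with equal numbers of genes raised and lowered in LPS-treated Hdac3f/f libraries. Only the LPS response in Hdac3f/f cells was scored, so the genotype differences and the interaction were not checked in this way. Sequences came from RefSeq, GRCm38.p6, matched by symbol.

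The 10 genes are always named. Of the other pathway genes, each list gave up to 3 genes called in each direction with the lowest p and at least 5 CPM in the higher group, and those that moved against most of their list. A gene the rule gives is not reported here. The 10 genes, the lists and the tests were chosen with earlier results of these data known.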

Additional observations from a re-analysis of the deposited data

Results flagged for a closer look

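The LPS response of 4 of the 10 genes differed between the genotypes by the test of that difference (edgeR's interaction term, adjusted over all tested genes). Over all tested genes 2.58% were called higher and 5.54% lower by it. The response was larger in Lyz2-Cre-Hdac3f/f cells by 1.01 on the log2 scale for Nqo1, by 0.97 for Gclm and by 0.87 for Gclc, and for Sod2 the difference was -1.39. For Gclc the 2 responses had opposite signs, -0.35 and 0.52, and the first of these lost its call in 14 of 20 other settings. For Sod2 the untreated levels of the genotypes lay apart, and the LPS-treated level in Lyz2-Cre-Hdac3f/f cells was called lower by DESeq2 (-0.26) and not by edgeR (-0.21). Stromal markers were lower in Lyz2-Cre-Hdac3f/f libraries at both treatments, and their part in these values was not tested.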

How the results depend on the processing

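Of 990 values of single genes under other settings, 933 kept their direction and their side of the threshold. A further 28 lost a call, 21 gained one and 8 changed sign. Some fits left out a library of a group outside the comparison, and those values could hardly change direction. Gclc between genotypes with LPS, for example, was 1.0388 without Lyz2-Cre-Hdac3f/f untreated replicate 1 and 1.0377 with all libraries. The sign changes with library totals alone were Nqo1 in the LPS response of Hdac3f/f cells (-0.13), Sod2 between genotypes with LPS (0.063), and Hmox1 (0.10) and Slc7a11 (0.13) in the interaction. The interaction of Slc7a11 also changed sign without Hdac3f/f untreated replicate 3 (0.05), Hdac3f/f LPS replicate 1 (0.14), Lyz2-Cre-Hdac3f/f untreated replicate 1 (0.08) and Lyz2-Cre-Hdac3f/f LPS replicate 3 (0.05), with a range of -0.31 to 0.14 over fits without 1 library. None of these values was called. On that scale 9 of the 10 genes were called between genotypes with LPS, and 77.1% of calls were then higher, against 48.2%. In the interaction 71.7% were then higher against 31.8%, and in the LPS responses 20.2% against 46.5% (Hdac3f/f) and 24.6% against 47.7% (Lyz2-Cre-Hdac3f/f). DESeq2 called 1792 genes in the interaction. Leaving out 1 library gave 2 to 5 of the 10 genes called between genotypes without LPS, 4 to 7 with LPS, 3 to 5 in the interaction, 9 to 10 in the LPS response of Hdac3f/f and 10 in that of Lyz2-Cre-Hdac3f/f cells. The calls over all genes then ran from 779 to 2530 without LPS, 2798 to 6004 with LPS and 530 to 1995 in the interaction. The cause of these changes was not tested. Same-numbered replicates had r over 0.1 in 5 of 18 pairs (from -0.40 to 0.22), and 7 of 18 correlated best with their own number. With only 3 numbers a group, this check cannot decide whether the numbers pair the samples. With the replicate block 6 of the 10 genes were called between genotypes with LPS, Nfe2l2 (0.31, adjusted p = 0.0483, edgeR) being added, and the counts in the other 4 comparisons were 10, 10, 3 and 4, as without it. Over all tested genes 2510 were called higher and 2480 lower with LPS in that fit, against 2243 and 2413 without the block. With 3 libraries a group, small differences may go undetected.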
